A study of Rattus norvegicus with 15 samples.

Results

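The chaperone genes of the endoplasmic reticulum (ER) and cytosol were followed in rat liver as a set of 38 genes chosen by name, and 34 of the 38 could be read on the array through a probe set that carries no other gene's symbol. Each gene was represented by its brightest probe set, and the 34 fell into 23 ER genes, 8 cytosolic genes and 3 mitochondrial genes, out of 9540 genes that passed a filter on dim probe sets. All 34 passed that filter. Hspa1b, Hspa8 and Hsp90aa1 were carried only by probe sets shared with another symbol and are described apart, and Ern1 was not analysed here. The list was drawn up with earlier results of these data known, and the rule for the probe set of a gene uses symbols and brightness only.

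The samples were livers of male Sprague dawley rats from Charles River, 7 weeks old at the start and fed a diet with 59% of its energy as fat throughout. All 3 groups of 5 samples shared that diet and a daily gavage for 6 weeks. The vehicle group received 0.5% methylcellulose, and the other groups received PF-04923503 at 10 mg/kg or at 30 mg/kg. PF-04923503 is labelled as an ACC inhibitor, that is, an inhibitor of acetyl-CoA carboxylase, which makes the malonyl-CoA used for fatty acid synthesis. Every group was on the high fat diet, so differences are between treated and untreated livers of fat-fed rats. The labels number the 5 samples of a group but do not say whether they are 5 separate rats, and the spread behind each p-value is that between samples, which may be technical in part.

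Liver secretes much of the protein of blood plasma, and these proteins fold in the ER with the help of the Hsp70 protein BiP (Hspa5), the Hsp90 protein encoded by Hsp90b1, lectin chaperones and disulfide isomerases. When unfolded protein accumulates there, the sensors Atf6, Ern1 and Eif2ak3 start the unfolded protein response, in which Atf6 and the spliced form of Xbp1 raise the transcription of ER chaperones and of the machinery that returns misfolded protein to the cytosol for degradation. Cytosolic chaperones answer to a separate factor, Hsf1, which binds heat shock elements in their promoters.

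Both transcriptional programmes are read through short promoter elements, and the promoters are shown here because these elements mark some of the ER members and, by a different motif, some of the cytosolic and mitochondrial members. RefSeq promoters on GRCr8, each 250 bases before to 50 bases after an annotated start, were found for 30 of the 38 members. The ER stress response element was searched as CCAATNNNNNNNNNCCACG, the ER stress response element II as ATTGGNCCACG and the heat shock element as GAANNTTCNNGAA, each on both strands. No match of one motif overlapped a match of another. The promoter of Hspa5, at chr3:38452766-38453065 on the plus strand, is given whole, with the constant letters of its ER stress response element in capitals:
Hspa5: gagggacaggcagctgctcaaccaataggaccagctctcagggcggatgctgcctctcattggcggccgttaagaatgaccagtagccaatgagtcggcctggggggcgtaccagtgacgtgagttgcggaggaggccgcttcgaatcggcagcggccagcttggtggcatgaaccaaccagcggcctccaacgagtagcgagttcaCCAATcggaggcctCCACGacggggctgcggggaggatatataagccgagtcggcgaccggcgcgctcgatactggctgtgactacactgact

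The same element was present in 7 of the 18 ER members with a promoter (Hspa5, Hsp90b1, Dnajc3, Xbp1, Creld2, Calr and Canx), against 22 of 33469 promoters of all genes (0.0657%), and in 0 of 9 cytosolic members. Hsp90b1 held it at 2 positions. The windows below run 5′ to 3′ on the strand of the gene, with 12 bases on either side of the match and the constant letters in capitals. A match on the opposite strand appears as CGTGG before ATTGG.
Hsp90b1 (chr7:23012439-23012481, minus strand): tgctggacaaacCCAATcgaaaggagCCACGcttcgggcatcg
Dnajc3 (chr15:102432522-102432564, plus strand): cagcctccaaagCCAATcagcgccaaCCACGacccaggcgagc
Xbp1 (chr14:84604546-84604588, plus strand): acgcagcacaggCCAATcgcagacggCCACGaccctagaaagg
Creld2 (chr7:121789227-121789269, plus strand): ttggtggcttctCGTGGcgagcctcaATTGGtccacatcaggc
Calr (chr19:40213123-40213165, plus strand): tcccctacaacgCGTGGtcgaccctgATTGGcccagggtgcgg
Canx (chr10:35158057-35158099, minus strand): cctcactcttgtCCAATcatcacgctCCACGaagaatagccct

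Element II was present in 3 other ER members, Herpud1, Dnajb11 and Hyou1, against 17 of 33469 promoters (0.0508%). Here the CCACG follows the ATTGG after 1 base:
Herpud1 (chr19:10614809-10614843, minus strand): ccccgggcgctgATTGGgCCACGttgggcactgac
Dnajb11 (chr11:91672788-91672822, minus strand): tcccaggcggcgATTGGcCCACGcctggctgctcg

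The heat shock element was present in 3 of 9 cytosolic members (Hspa8, Hsph1 and Dnaja1) and in 2 of 3 mitochondrial members, against 267 of 33469 promoters (0.798%), and in 0 of 18 ER members. The mitochondrial pair, Hspd1 and Hspe1, are read in opposite directions from promoters that overlap by 211 bases, so their elements are the same stretch of DNA.
Hsph1 (chr12:10427320-10427356, plus strand): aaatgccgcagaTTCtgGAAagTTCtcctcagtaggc
Dnaja1 (chr5:60638401-60638437, plus strand): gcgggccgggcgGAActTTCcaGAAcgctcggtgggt
Hspd1 (chr9:64084250-64084286, minus strand): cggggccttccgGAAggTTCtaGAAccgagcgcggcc
A match describes the letters and not a bound factor.

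No member passed the test used across all genes. At 10 mg/kg against vehicle, 0 of 34 members were called at an adjusted p under 0.05 (limma, Benjamini-Hochberg over 9540 genes), where 0.105% of all genes were called. The same count was 0 at 30 mg/kg against vehicle and 0 at 30 against 10 mg/kg, where 0% of all genes were called in either comparison, and 0 for the mean of both doses against vehicle, where 0.147% were called. The comparisons with vehicle share the 5 vehicle samples, and the comparison between doses shares the treated samples with both. The 95% confidence intervals lay wholly within a 1.25-fold change either way for 22 of 34 members at 10 mg/kg (64.7%, against 72.8% of all genes) and for 28 at 30 mg/kg (82.4%, against 71.3%).

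At an unadjusted p under 0.05 (limma), 2 members were higher and 4 lower at 10 mg/kg, that is 5.88% and 11.8% of members, against 4.49% and 8.79% of all genes. At 30 mg/kg, 2 were higher (5.88%, against 5.27%) and 1 lower (2.94%, against 10.8%). Between the doses, 3 were higher at 30 mg/kg (8.82%, against 2.57%) and 2 lower (5.88%, against 3.25%). For the mean of both doses, 1 was higher (2.94%, against 5.3%) and 1 lower (2.94%, against 12.4%). Each share rests on 1 to 4 genes and is given as a description.

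**Figure D1:**
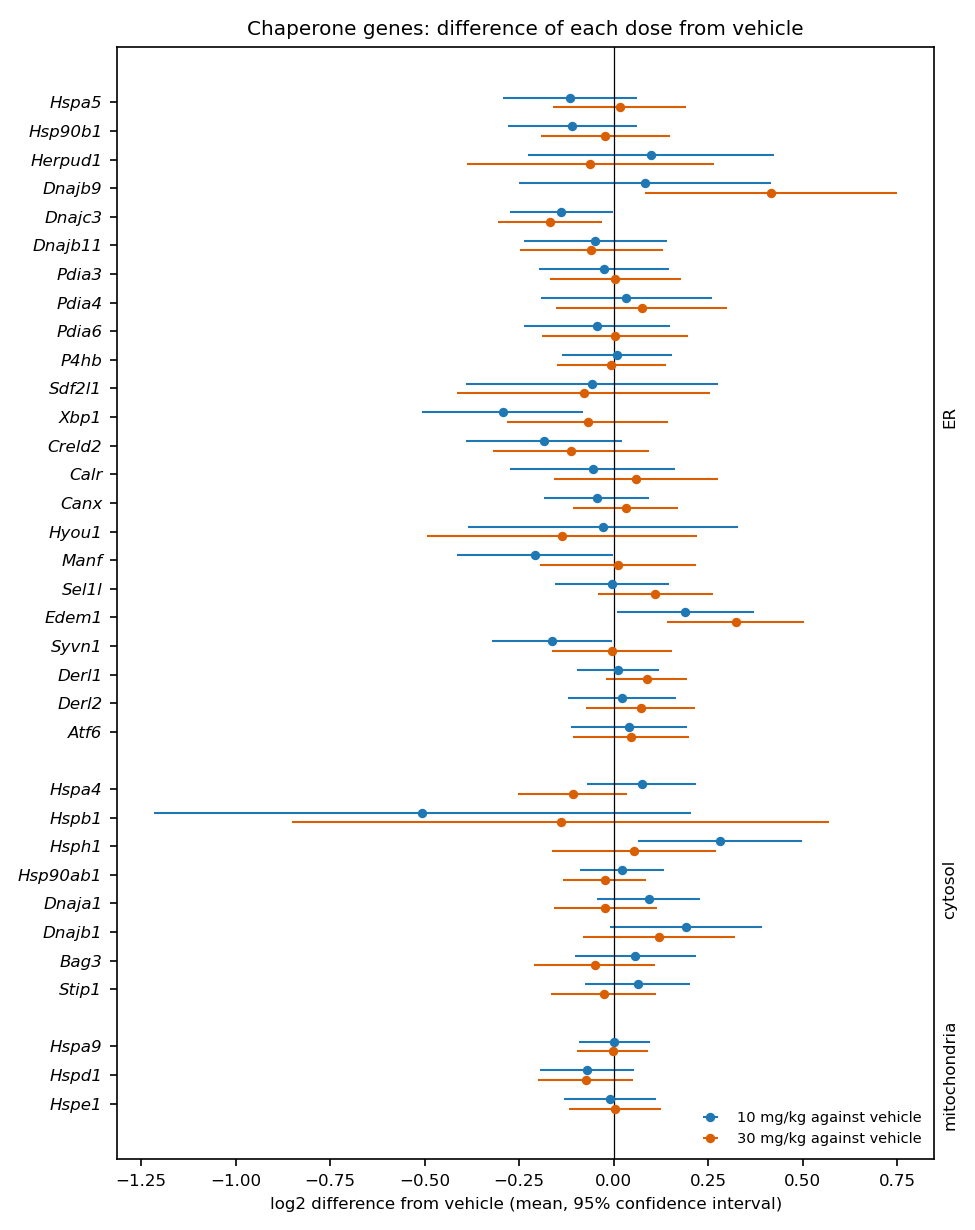
Log2 difference from vehicle (x axis) of each of the 34 chaperone genes (y axis, by compartment) at 10 mg/kg (blue) and 30 mg/kg (orange), with points for the difference of means of 5 samples and bars for 95% confidence intervals. Most points lie near 0; Edem1 and Dnajb9 lie to the right at 30 mg/kg, Xbp1 to the left at 10 mg/kg, and Hspb1 has the widest intervals.

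Among the folding chaperones of the ER, BiP and its Hsp90 partner lay within the range of the vehicle samples or close to it. Hspa5 encodes BiP, the Hsp70 of the ER, and its log2 values were 13.03, 12.83, 13.32, 13.20 and 13.16 in vehicle, 12.93, 13.01, 13.13, 13.03 and 12.85 at 10 mg/kg, and 13.07, 13.05, 13.30, 13.10 and 13.09 at 30 mg/kg. The 3 groups overlapped, and vehicle held both the lowest and the highest sample. Against vehicle, the level of Hspa5 was 0.923-fold at 10 mg/kg (95% interval 0.816 to 1.04, adjusted p = 0.577, limma) and 1.01-fold at 30 mg/kg (0.894 to 1.14, adjusted p = 0.947). The interval at 30 mg/kg leaves no room for a rise above 1.14-fold at that confidence.

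Hsp90b1 encodes the Hsp90 of the ER. Its log2 values were 12.28, 12.18, 12.53, 12.52 and 12.53 in vehicle, 12.40, 12.24, 12.38, 12.17 and 12.32 at 10 mg/kg, and 12.32, 12.30, 12.34, 12.59 and 12.38 at 30 mg/kg. Vehicle samples 3, 4 and 5 lay above every 10 mg/kg sample, while samples 1 and 2 lay among them. The level was 0.927 times vehicle at 10 mg/kg (0.824 to 1.04) and 0.984 times at 30 mg/kg (0.874 to 1.11), with adjusted p of 0.587 and 0.913 (limma).

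Dnajb9 encodes a J-domain cochaperone of BiP that is also known to restrain the sensor Ern1. It had the largest difference of the ER members at 30 mg/kg. Its log2 values were 9.16, 9.31, 10.19, 9.37 and 9.38 in vehicle, 9.27, 9.48, 9.70, 9.78 and 9.57 at 10 mg/kg, and 9.80, 9.80, 9.97, 9.85 and 10.05 at 30 mg/kg. Every 30 mg/kg sample lay above every 10 mg/kg sample and above 4 of the 5 vehicle samples, and vehicle sample 3, at 10.19, was the highest of all 15. The level at 30 mg/kg was 1.33 times vehicle (1.06 to 1.68, unadjusted p = 0.0181, adjusted p = 0.224, limma) and 1.26 times the 10 mg/kg level (1.00 to 1.59, unadjusted p = 0.0502, adjusted p = 0.851). Without vehicle sample 3 the 30 mg/kg and vehicle groups did not overlap, and the log2 difference was 0.59 in place of 0.42.

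Dnajc3, another J-domain partner of BiP, was on the lower side at both doses. Its log2 values were 11.52, 11.51, 11.63, 11.70 and 11.52 in vehicle, 11.44, 11.41, 11.65, 11.38 and 11.31 at 10 mg/kg, and 11.52, 11.35, 11.39, 11.33 and 11.44 at 30 mg/kg. Sample 3 at 10 mg/kg and sample 1 at 30 mg/kg reached into the vehicle range, and the other treated samples lay below it. The level was 0.908 times vehicle at 10 mg/kg (0.826 to 0.999, adjusted p = 0.369, limma) and 0.89 times at 30 mg/kg (0.81 to 0.978, adjusted p = 0.228), and 0.899 times for the mean of both doses (0.828 to 0.976, unadjusted p = 0.0145, adjusted p = 0.186).

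Manf encodes a small ER protein that binds BiP and is secreted under ER stress. Its log2 values were 11.39, 11.26, 11.78, 11.76 and 11.58 in vehicle, 11.33, 11.33, 11.42, 11.49 and 11.15 at 10 mg/kg, and 11.45, 11.51, 11.73, 11.59 and 11.53 at 30 mg/kg. Vehicle samples 3, 4 and 5 lay above all 10 mg/kg samples, and vehicle samples 1 and 2 lay within them. The level at 10 mg/kg was 0.865 times vehicle (0.75 to 0.998, adjusted p = 0.371, limma), that at 30 mg/kg was 1.01 times vehicle (0.874 to 1.16, adjusted p = 0.968), and the level at 30 mg/kg was 1.16 times that at 10 mg/kg (1.01 to 1.34, unadjusted p = 0.038, adjusted p = 0.851).

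The remaining folding members had no unadjusted p under 0.05 in any comparison. They are Dnajb11 and its partner Sdf2l1, which assist BiP, Hyou1, its nucleotide exchange factor, the lectin chaperones Calr and Canx, and the stress-inducible Creld2. Of the 11 folding members, 10 had a mean below vehicle at 10 mg/kg (median on the log2 scale, -0.06) and 6 had one at 30 mg/kg (median -0.02). Over all genes tested, 5554 of 9540 lay below vehicle at 10 mg/kg, with a median of -0.02. Creld2 was at 0.881 times vehicle at 10 mg/kg (0.763 to 1.02, adjusted p = 0.429, limma). Hyou1 had a single low sample, 30 mg/kg sample 4, at 8.60 when the other 4 samples of its group lay between 9.41 and 9.45.

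The 4 disulfide isomerases, which form and rearrange the disulfide bonds of secreted proteins, had differences near 0. These ran from -0.04 to 0.03 at 10 mg/kg and from -0.01 to 0.07 at 30 mg/kg on the log2 scale, and all 4 confidence intervals lay within 1.25-fold at either dose. P4hb, the canonical isomerase, was at 1.01 times vehicle at 10 mg/kg (0.91 to 1.11) and 0.996 times at 30 mg/kg (0.901 to 1.1). Pdia6, another member, was at 0.97 times (0.849 to 1.11) and 1.00 times (0.877 to 1.15).

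Edem1 had the smallest p of all members. It encodes an ER protein that selects misfolded glycoproteins for degradation. Its log2 values were 10.71, 10.89, 10.98, 10.93 and 11.19 in vehicle, 11.09, 10.93, 11.11, 11.29 and 11.23 at 10 mg/kg, and 11.34, 11.35, 11.29, 11.22 and 11.12 at 30 mg/kg. All 30 mg/kg samples lay above vehicle samples 1 to 4, and the groups met only where vehicle sample 5 (11.19) stood above 30 mg/kg sample 5 (11.12). The level was 1.14 times vehicle at 10 mg/kg (1.01 to 1.29, unadjusted p = 0.0421, adjusted p = 0.359, limma) and 1.25 times at 30 mg/kg (1.1 to 1.42, unadjusted p = 0.00177, adjusted p = 0.145).

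For the mean of both doses, Edem1 was at 1.19 times vehicle (1.07 to 1.33, unadjusted p = 0.00342, adjusted p = 0.13, limma), and without vehicle sample 5 its adjusted p was 0.0489, which would be a call. Its 3 probe sets gave like differences, from 0.19 to 0.21 at 10 mg/kg and from 0.32 to 0.33 at 30 mg/kg on the log2 scale. The 30 mg/kg level was 1.10 times that at 10 mg/kg (0.968 to 1.24, adjusted p = 0.881), so the doses were not told apart.

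No other gene of ER-associated degradation was above vehicle at an unadjusted p under 0.05. Syvn1, the ubiquitin ligase of the pathway, had log2 values of 9.16, 9.29, 9.51, 9.37 and 9.31 in vehicle, 9.16, 9.01, 9.36, 9.27 and 9.04 at 10 mg/kg, and 9.38, 9.33, 9.33, 9.22 and 9.37 at 30 mg/kg. Its 10 mg/kg group reached lower than the rest and overlapped both. It was at 0.893 times vehicle at 10 mg/kg (0.8 to 0.996, adjusted p = 0.359, limma) and 0.997 times at 30 mg/kg (0.894 to 1.11, adjusted p = 0.984).

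Sel1l, the partner of Syvn1, was at 1.08 times vehicle at 30 mg/kg (0.972 to 1.20), the derlin Derl1 at 1.06 times (0.986 to 1.14) and Derl2, a related derlin, at 1.05 times (0.951 to 1.16), with adjusted p of 0.461, 0.411 and 0.623 (limma). A dimmer probe set of Derl2 gave a log2 difference of 0.32 at 10 mg/kg where the brightest gave 0.02, so the probe sets of this gene did not agree in size. Herpud1, a scaffold of the ligase complex and a common marker of ER stress, was at 1.07 times vehicle at 10 mg/kg (0.854 to 1.34) and 0.958 times at 30 mg/kg (0.764 to 1.20).

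Xbp1, whose spliced transcript encodes the main transcription factor downstream of Ern1, was the ER member with the lowest level at 10 mg/kg relative to vehicle. Its log2 values were 11.84, 11.66, 11.996, 11.80 and 11.46 in vehicle, 11.59, 11.33, 11.68, 11.22 and 11.45 at 10 mg/kg, and 11.63, 11.63, 11.74, 11.60 and 11.81 at 30 mg/kg. At 10 mg/kg, 4 samples lay below vehicle samples 1 to 4, and the groups overlapped through 10 mg/kg sample 3 and through vehicle sample 5. The level was 0.816 times vehicle at 10 mg/kg (0.704 to 0.945, unadjusted p = 0.01, adjusted p = 0.247, limma) and 0.954 times at 30 mg/kg (0.823 to 1.1, adjusted p = 0.777), and its 30 mg/kg level was 1.17 times that at 10 mg/kg (1.01 to 1.35, unadjusted p = 0.0392, adjusted p = 0.851). Nothing in the labels says whether this probe set tells the spliced from the unspliced transcript. The sensor Atf6 was at 1.03 times vehicle at either dose, with intervals of 0.925 to 1.14 and 0.929 to 1.15.

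**Figure D2:**
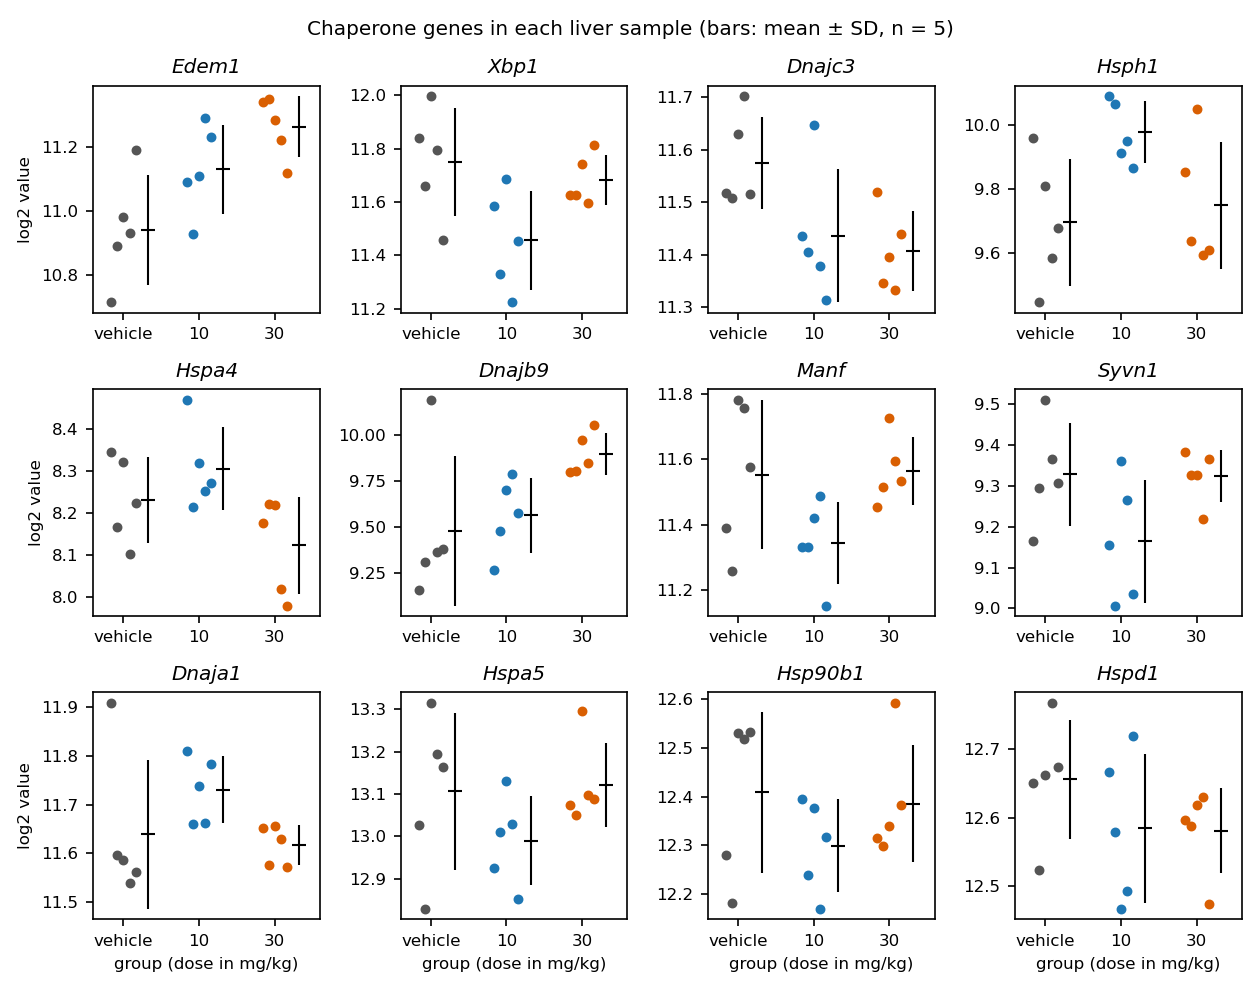
Log2 value (y axis) of 12 chaperone genes in each of the 5 samples per group (points; x axis, vehicle, 10 and 30 mg/kg), with the group mean and SD as black bars. Dnajb9 shows the 30 mg/kg points above all 10 mg/kg points with 1 high vehicle sample at 10.19, and Edem1 shows 30 mg/kg points from 11.12 to 11.35 against 10.71 to 11.19 in vehicle.

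Among the cytosolic chaperones, Hsph1 and Hspa4 had the smallest p-values. Hsph1 encodes an Hsp110 protein, a nucleotide exchange factor of cytosolic Hsp70, and its log2 values were 9.96, 9.45, 9.81, 9.59 and 9.68 in vehicle, 10.09, 10.07, 9.91, 9.95 and 9.87 at 10 mg/kg, and 9.85, 9.64, 10.05, 9.59 and 9.61 at 30 mg/kg. The 10 mg/kg samples lay above 4 of the 5 vehicle samples, and vehicle sample 1 stood among them. The level at 10 mg/kg was 1.21 times vehicle (1.05 to 1.41, unadjusted p = 0.0147, adjusted p = 0.276, limma), and a second probe set gave a log2 difference of 0.23 beside 0.28. At 30 mg/kg Hsph1 was at 1.04 times vehicle (0.892 to 1.21, adjusted p = 0.84) and at 0.854 times the 10 mg/kg level (0.735 to 0.992, unadjusted p = 0.0408, adjusted p = 0.851).

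Hspa4, a further member of the Hsp110 family, had log2 values of 8.35, 8.17, 8.32, 8.10 and 8.22 in vehicle, 8.47, 8.21, 8.32, 8.25 and 8.27 at 10 mg/kg, and 8.18, 8.22, 8.22, 8.02 and 7.98 at 30 mg/kg. The doses met at 8.21 and 8.22. It was at 0.881 times the 10 mg/kg level at 30 mg/kg (0.798 to 0.974, unadjusted p = 0.0163, adjusted p = 0.851, limma), with 1.05 times vehicle (0.953 to 1.16) and 0.927 times vehicle (0.84 to 1.02) at the lower and the higher dose.

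Dnaja1, a J-domain cochaperone of Hsp70, had log2 values of 11.91, 11.60, 11.59, 11.54 and 11.56 in vehicle, 11.81, 11.66, 11.74, 11.66 and 11.78 at 10 mg/kg, and 11.65, 11.58, 11.66, 11.63 and 11.57 at 30 mg/kg. All 10 mg/kg samples lay above all 30 mg/kg samples, by a margin smaller than the rounding of these values, and vehicle sample 1 lay above every other sample. The 30 mg/kg level was 0.924 times the 10 mg/kg level (0.84 to 1.02, adjusted p = 0.857, limma). A dimmer probe set of Dnaja1 gave a log2 difference from vehicle of 0.20 at 10 mg/kg where the brightest gave 0.09. Between the doses these gave -0.16 and -0.11. Dnaja1 and Dnajb9 were the 2 of 34 members (5.88%) whose doses did not overlap, where 0.943% of all genes were so separated. Against vehicle, 0 members were separated at 10 mg/kg, at 30 mg/kg or for both doses pooled, where 2.44%, 3.21% and 0.608% of all genes were.

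The other cytosolic members were Dnajb1, a heat-inducible J-domain protein, Hsp90ab1, the constitutive Hsp90, its adaptor Stip1, the cochaperone Bag3 and the small heat shock protein Hspb1. Dnajb1 was at 1.14 times vehicle at 10 mg/kg (0.994 to 1.31, adjusted p = 0.398, limma) and 1.09 times at 30 mg/kg (0.945 to 1.25). Hsp90ab1 was at 1.02 times (0.941 to 1.10) and 0.983 times (0.91 to 1.06). A dimmer probe set of Hsp90ab1 gave a log2 difference of -0.15 at 30 mg/kg where the brightest gave -0.02, and 0.02 from both at 10 mg/kg. Hspb1 varied most between samples of a group, with an SD of 0.82 on the log2 scale at 30 mg/kg, and its interval at 10 mg/kg ran from 0.431 to 1.15 times vehicle, so this design said little about it.

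The members on shared probe sets, which can hold signal from either symbol, gave the following. The probe set shared by Hspa8, the constitutive Hsp70, and Haus8l2 had log2 values of 13.66, 13.05, 13.01, 13.08 and 12.73 in vehicle, 13.20, 13.40, 13.23, 13.27 and 12.90 at 10 mg/kg, and 13.07, 12.98, 13.21, 12.85 and 12.94 at 30 mg/kg. It was at 1.07 times vehicle (0.873 to 1.31) and 0.937 times vehicle (0.765 to 1.15) at the lower and higher dose. The groups overlapped, with vehicle sample 1 the highest of all.

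A probe set shared by Hsp90aa1, the stress-inducible Hsp90, and a pseudogene entry had log2 values of 11.58, 11.26, 11.38, 11.37 and 11.31 in vehicle, 11.53, 11.47, 11.19, 11.43 and 11.25 at 10 mg/kg, and 11.32, 10.94, 11.30, 11.15 and 11.01 at 30 mg/kg. The 30 mg/kg group held the 3 lowest samples and overlapped the others. Its level was 0.851 times vehicle at 30 mg/kg (0.746 to 0.97, unadjusted p = 0.019, adjusted p = 0.227, limma, with the shared probe sets added to the fit). The second such probe set had log2 values of 12.52, 12.15, 12.29, 12.31 and 12.26 in vehicle, 12.39, 12.43, 12.25, 12.43 and 12.21 at 10 mg/kg, and 12.32, 11.95, 12.27, 12.23 and 12.03 at 30 mg/kg. Its groups overlapped as well, with the 2 lowest samples at 30 mg/kg, and its level there was 0.904 times vehicle (0.8 to 1.02, adjusted p = 0.397). At 10 mg/kg the first and second probe sets were at 0.997 times (0.875 to 1.14) and 1.03 times vehicle (0.907 to 1.16). The 30 mg/kg level was 0.853 times (0.748 to 0.973) and 0.881 times (0.78 to 0.996) that at 10 mg/kg. The unadjusted p was 0.0208 and 0.0434, and the adjusted p was 0.85 for both (limma).

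The probe set shared by Hspa1b and Hspa1a, the heat-inducible Hsp70 genes, lay below the filter on dim probe sets. With the shared probe sets added to the fit, it was at 1.10 times vehicle at 10 mg/kg (0.958 to 1.26, adjusted p = 0.56, limma). At 30 mg/kg it was at 1.09 times vehicle (0.95 to 1.25, adjusted p = 0.531). In log2 units the values were 5.60, 5.46, 5.62, 5.56 and 5.47 in vehicle, 5.38, 5.94, 5.74, 5.58 and 5.73 at 10 mg/kg, and 5.67, 5.59, 5.70, 5.48 and 5.88 at 30 mg/kg. The 10 mg/kg group held both the lowest and the highest sample.

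All 3 mitochondrial chaperones had confidence intervals within 1.25-fold at either dose. Hspd1, which encodes Hsp60, had log2 values of 12.65, 12.52, 12.66, 12.77 and 12.67 in vehicle, 12.67, 12.58, 12.47, 12.49 and 12.72 at 10 mg/kg, and 12.60, 12.59, 12.62, 12.63 and 12.47 at 30 mg/kg. Against vehicle it was at 0.952 times (0.873 to 1.04) and 0.95 times (0.871 to 1.04), with adjusted p of 0.636 and 0.55 (limma). Its partner Hspe1, from the overlapping promoter, was at 0.993 times (0.913 to 1.08) and 1.00 times (0.921 to 1.09). Hspa9, the mitochondrial Hsp70, was at 1.00 times (0.938 to 1.07) and 0.998 times (0.935 to 1.07).

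By compartment, the log2 differences from vehicle had a median over the 23 ER members of -0.04 at the lower dose and 0.00 at the higher, and over the 8 cytosolic members of 0.07 and -0.03, beside -0.02 and -0.03 over all genes. With 1 sample left out, the ER median lay between -0.08 and 0.00 at 10 mg/kg, the extremes being those with vehicle sample 1 and vehicle sample 4 dropped. The range at 30 mg/kg was -0.04 to 0.05, with vehicle sample 1 and vehicle sample 3 dropped. The cytosolic median ran from 0.06 to 0.11 and from -0.04 to 0.01. At 10 mg/kg 8 of 23 ER members and 7 of 8 cytosolic members lay above vehicle, and at 30 mg/kg 13 of 23 and 2 of 8 did. Of all genes, 41.8% and 38% lay above vehicle at the lower and the higher dose. Between the doses, 17 of 23 ER members were higher at 30 than at 10 mg/kg (median 0.07) and 7 of 8 cytosolic members were lower (median -0.10), where 45.6% of all genes were higher. These counts are a description, since members of a set vary together and were not tested as one.

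The 7 ER members with the ER stress response element all had means below vehicle at 10 mg/kg (median -0.12), and 6 of them were higher at 30 than at 10 mg/kg. Of the 11 ER members whose promoter lacked it, 5 lay below vehicle at 10 mg/kg (median 0.01), and 6 were higher at 30 than at 10 mg/kg. At 30 mg/kg against vehicle the medians were -0.02 and 0.00. All of the 7 but Xbp1 are folding members. Of the 11 folding members, 10 lay below vehicle at 10 mg/kg, so element and role cannot be told apart. Of the 3 ER members with element II, 2 lay below vehicle at 10 mg/kg and 0 were higher at 30 than at 10 mg/kg. Of 4 measured members with the heat shock element, 2 lay below vehicle at 10 mg/kg and 1 was higher at 30 than at 10 mg/kg. Of the 7 cytosolic and mitochondrial members without it, 1 and 1 were. The splits were made after the values were known and carry no test.

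**Figure D3:**
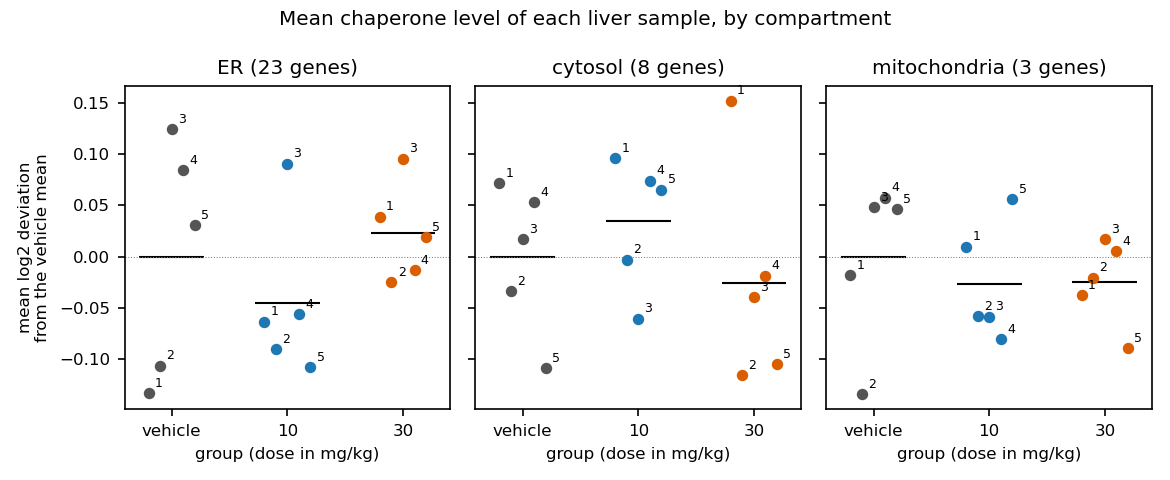
Mean log2 deviation from the vehicle mean (y axis) over the ER, cytosolic and mitochondrial chaperone genes in each sample (points numbered by sample; x axis, vehicle, 10 and 30 mg/kg; black lines are group means). The vehicle samples span -0.13 to 0.12 for the ER genes, wider than the treated samples together.

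Samples of a single group differed more in ER chaperone level than the groups did. The mean deviation of the 23 ER members from their vehicle means was -0.13, -0.11, 0.12, 0.08 and 0.03 in vehicle samples 1 to 5. It was -0.06, -0.09, 0.09, -0.06 and -0.11 at 10 mg/kg, and 0.04, -0.03, 0.10, -0.01 and 0.02 at 30 mg/kg. Sample 3 at 10 mg/kg stood alone in its group. Without it, 7 members separated the doses (Hspa5, Dnajb9, Pdia6, Xbp1, Calr, Dnaja1 and Bag3) in place of 2, that is 20.6% of members, where 2.52% of all genes were separated in place of 0.943%. With any other sample left out, 2 or 3 members did. Sample 3 was singled out by these same values and the members vary together, so the count is a description.

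Once group means were removed, most ER members varied together across the 15 arrays, which share 1 normalization. The following are descriptions without a test, for pairs singled out after their values were seen. Of 9539 other genes, Manf varied most like Hspa5 (r = 0.918, rho = 0.929, r = 0.848 without the 2 arrays farthest from the median of Hspa5). Within the vehicle, 10 and 30 mg/kg groups that r was 0.956, 0.813 and 0.911. Creld2 was in place 7 (r = 0.792, rho = 0.836), Pdia4 in place 10 (r = 0.781, rho = 0.854) and Canx in place 23 (r = 0.742, rho = 0.754). The median r with Hspa5 was 0.536 over the other 22 ER members, -0.143 over the 8 cytosolic members and 0.413 over the 3 mitochondrial members, against -0.01 over all genes. The mitochondrial values leaned on the 2 arrays farthest from the median of Hspa5. Without these arrays r went from 0.594 to 0.096 for Hspe1, from 0.413 to 0.185 for Hspa9 and from 0.090 to -0.295 for Hspd1. Within the 10 mg/kg group it was -0.931, -0.057 and -0.959.

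The closest pair of all was Pdia6 with the lectin chaperone Calr (r = 0.948, rho = 0.889, r = 0.913 without the 2 farthest arrays). Sdf2l1 was close to Pdia6 (r = 0.906) and to Dnajc3 (r = 0.892). Of the 253 pairs of ER members, 87 had an r over 0.5 (34.4%), against 5.3% of all pairs of tested genes. Of the 28 pairs of cytosolic members, 4 did (14.3%), and of the 184 pairs of an ER with a cytosolic member, 3 did (1.63%).

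Not all ER members joined in. Herpud1 had a negative r with 19 of the 22 other ER members (median -0.41), the lowest with Dnajb11 (r = -0.686, rho = -0.729, r = -0.593 without the 2 farthest arrays). Edem1 and Xbp1 were only loosely tied to Hspa5 (r = 0.183 and 0.306), and Sel1l, Hyou1 and Derl2 less so (r = 0.141, 0.096 and -0.012). Edem1 did vary with Dnajb11 (r = 0.701) and Xbp1 with Dnajc3 (r = 0.554). Among cytosolic members, Hsph1 varied with Stip1 (r = 0.773, rho = 0.707) and Hspa4 (r = 0.67, rho = 0.739), and also with the ER sensor Atf6 (r = 0.753, rho = 0.679). Of 9539 other genes these were in places 11, 69 and 24, and the 10 nearest to Hsph1 were not members. The cytosolic Bag3 had a negative r with Hsph1 (r = -0.549, rho = -0.44). Within single groups of 5 several of these values differ widely: that of Hspa5 with Calr was 0.687 in vehicle, 0.818 at 10 mg/kg and -0.294 at 30 mg/kg.

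**Figure D4:**
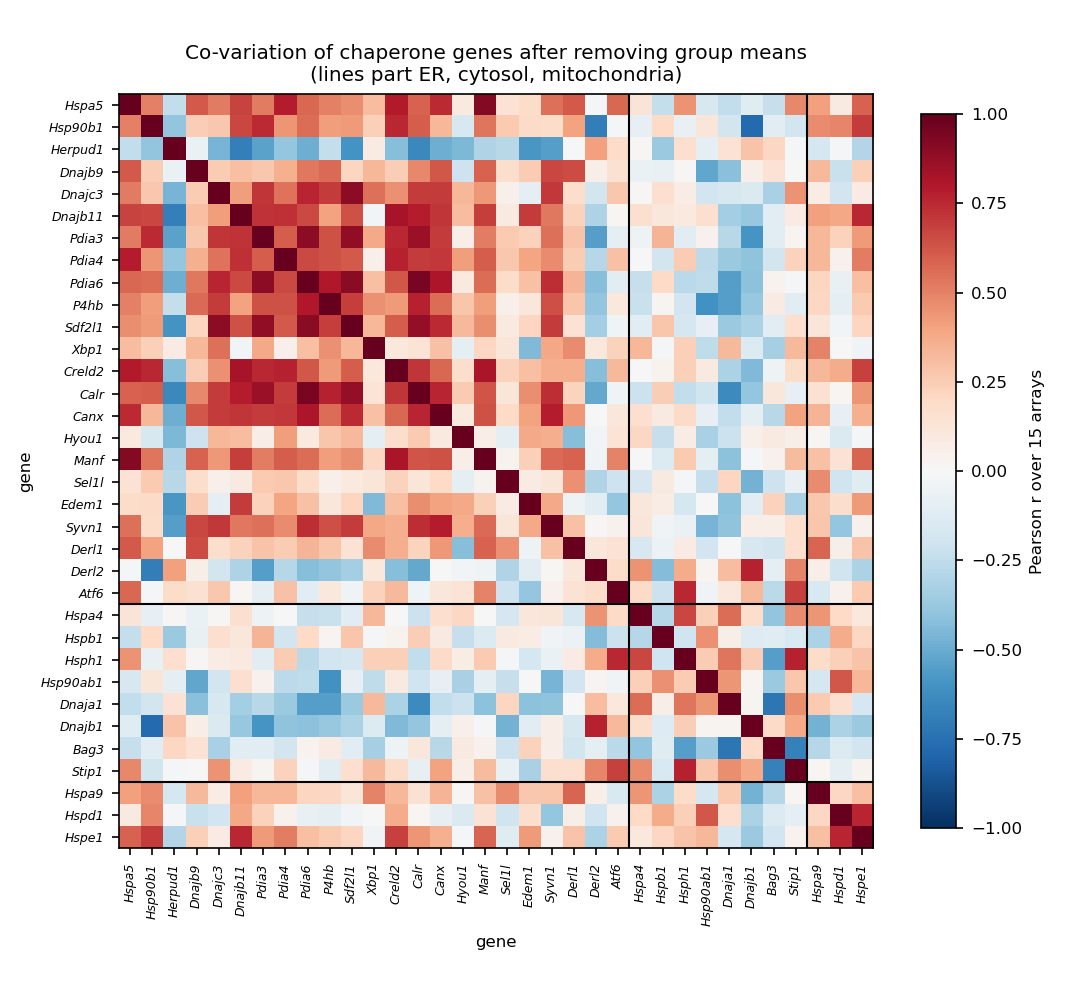
Pearson r (colour, red above 0 and blue below) between each pair of the 34 chaperone genes over 15 arrays after group means were removed, with genes on both axes and black lines between ER, cytosolic and mitochondrial genes. The ER block is mostly red, with Herpud1 and Derl2 as blue lines across it, and the ER by cytosol block is mixed.

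The arrays were alike as a whole, with correlations between 0.989 and 0.996 and medians from 6.08 to 6.12, and 9 of 10 hepatocyte markers passed the filter (median difference 0.02 at the lower dose and 0.01 at the higher). Kupffer cell, endothelial and stellate cell markers lay mostly below vehicle in treated livers. Of all 9540 genes, 5554 lay below at 10 mg/kg and 5917 at 30 mg/kg. Of 2 measured plasma cell and lymphocyte markers, 1 lay above at either dose, as did the 1 cholangiocyte marker measured. Fewer cells of a type and less RNA per cell cannot be told apart in bulk tissue. Of 11 Kupffer cell and macrophage markers, 10 lay below vehicle at either dose (median -0.39 and -0.34), with a mean level from -0.25 to 0.31 in vehicle samples, -0.60 to -0.09 at 10 mg/kg and -0.64 to 0.09 at 30 mg/kg. All 8 endothelial markers lay below vehicle (median -0.22 and -0.15), with ranges of -0.10 to 0.08, -0.40 to -0.07 and -0.31 to -0.02. Of 9 stellate cell markers, 9 lay below at 10 mg/kg and 6 at 30 mg/kg, with ranges of -0.17 to 0.10, -0.31 to -0.14 and -0.35 to 0.21. None of these markers was called (limma). At an unadjusted p under 0.05 (limma), 6 Kupffer cell, 2 endothelial and 3 stellate cell markers were lower at 10 mg/kg. These were 54.5%, 25% and 33.3%, against 8.79% of all genes. At 30 mg/kg 1, 2 and 0 were lower (9.09%, 25% and 0%, against 10.8%). For the mean of both doses 8, 2 and 2 were lower (72.7%, 25% and 22.2%, against 12.4%), and 0 were higher in any of these. The part of these markers in the chaperone values was not tested. The difference between 3′ and 5′ control probe sets, which is larger where RNA is degraded, was 0.30 to 0.50 on the log2 scale over all arrays for Gapdh and 1.62 to 1.91 for actin. For hexokinase it was 1.51 to 1.99, with means of 1.83 in vehicle, 1.93 at 10 mg/kg and 1.80 at 30 mg/kg. The part of RNA integrity in the chaperone values was not tested.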

How the data were processed

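The authors deposited log2 values per probe set of a rat expression array. The tools limma 2.14.7, GCRMA 2.12.1 and RMA are listed, per the submitters' processing notes, with no role stated for any of them. The array medians are near equal, and a shift common to most genes could not be measured. Of 31099 probe sets, 20826 carried 1 gene symbol, 436 several and 9780 none, beside 57 controls. Probe sets were kept where the fifth highest of 15 values exceeded the median of all values, 6.10, and the brightest stood for each of 9540 genes. Group means were fitted to all 15 arrays with limma 3.58.1 in R 4.3.3, with eBayes and Benjamini-Hochberg adjustment, and a call was an adjusted p under 0.05. The fit was tested on simulated data. Fold values are powers of 2 of log2 differences. The number of arrays limits the precision.

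Members with an unadjusted p under 0.05 in any comparison or with groups that did not overlap are given sample by sample, as are Hspa5, Hsp90b1, Xbp1, Hspd1 and the genes on shared probe sets. Wider lists name up to 3 genes by smallest p. The members and lists were chosen with earlier results of these data known. Promoters came from RefSeq (GRCr8), matched by symbol. Alternatives varied the filter, the probe set per gene, the normalization, the variance model, the samples in the fit, a replicate block and each sample left out.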

Additional observations from a re-analysis of the deposited data

Results flagged for a closer look

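In 114 groups of 5 samples (34 genes and 4 shared probe sets, each in 3 groups), a single sample stood apart by a gap that is a large share of the whole range of its group in 10 cases, and chance flags about 1 in 20 groups. The share is given for each. Hspa5 in 30 mg/kg sample 3 (0.808) and Dnajb9 in vehicle sample 3 (0.786) were high. Hsp90b1 in 30 mg/kg sample 4 (0.716) was high, and Hyou1 in that sample was low (0.956). Sample 3 at 10 mg/kg was high for Pdia6 (0.937) and Sdf2l1 (0.712), and Sdf2l1 was high in 30 mg/kg sample 1 (0.743). Sample 5 at 30 mg/kg was low for Dnajb11 (0.72) and Hspd1 (0.723). Dnaja1 was high in vehicle sample 1 (0.844).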

How the results depend on the processing

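The count of called members was 0 in each comparison under every alternative run (filter, probe set per gene, normalization, variance model, the compared groups alone, replicate block, and shared probe sets added, the last chosen after seeing the data), and from 0 to 1 for the mean of both doses when 1 sample was left out (Edem1 without vehicle sample 5). With the replicate block 0 members were called; same-numbered samples had correlations from -0.07 to 0.19 and 3 of 15 samples matched their own number best, so the numbers were not taken to pair them. With the mean of probe sets, with quantile normalization and with arrays centred on the median, 1 member (2.94%) separated the doses. Of all genes, 0.933%, 1.03% and 0.996% did so in these settings. With that centring, 1 member (2.94%) was separated at 30 mg/kg against vehicle, beside 3.77% of all genes, and the cause was not tested. Leaving out 1 sample gave 0 to 2 separated members at 10 mg/kg, 0 to 1 at 30 mg/kg and 2 to 7 between doses. Of all genes, 2.44% to 4.92%, 3.21% to 6.46% and 0.943% to 2.81% were separated. Of 1188 values of named members under alternatives, 28 changed sign, 0 of them with an unadjusted p under 0.05, and of 297 compartment medians 24 did. Precision is limited by the 15 arrays, and the probe set of Hspa1b and Hspa1a lay below the filter.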

Other observations

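The wider lists of chaperone and related genes beyond the 38 also held no called gene. Of 52 further genes on the wider ER list, 43 were measured and 0 were called at any contrast (limma). At 10 mg/kg 3 had an unadjusted p under 0.05, all lower (6.98%, against 8.79% of all genes), and 0 were higher (against 4.49%). Cdk2ap2, which is named for the kinase Cdk2 and is not a chaperone, came closest to a call. It was at 0.774 times vehicle at 10 mg/kg (adjusted p = 0.074, limma) and 0.798 times for the mean of both doses (adjusted p = 0.0515). Edem2, a relative of Edem1, was at 0.85 times vehicle at 10 mg/kg (adjusted p = 0.282). At 10 mg/kg 34 of these 43 genes lay below vehicle (median -0.08), beside 5554 of all 9540 genes (median -0.02).

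Of 47 further genes on the wider cytosolic list, 43 were measured and 0 called (limma). At 10 mg/kg 4 were higher (9.3%, against 4.49% of all genes) and 2 lower (4.65%, against 8.79%) at an unadjusted p under 0.05. At 30 mg/kg 0 were higher and 6 lower (14%, against 10.8%). Hsf2, a heat shock factor, was at 1.15 times vehicle at 10 mg/kg (adjusted p = 0.214), and Hspa4l, a relative of Hspa4, at 1.45 times (adjusted p = 0.296). Cct4, a subunit of the cytosolic chaperonin, was at 0.88 times vehicle at 30 mg/kg (adjusted p = 0.133). At 30 mg/kg 30 of the 43 lay below vehicle. Of 13 further mitochondrial genes, 12 were measured and 10 lay below vehicle at either dose, none called (limma), with 0 at an unadjusted p under 0.05.

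Targets of the integrated stress response, the Eif2ak3 branch among them, had 8 of 9 genes measured and 0 called (limma). Chac1, a glutathione-degrading enzyme, was at 1.21 times vehicle at 10 mg/kg (adjusted p = 0.262), and Fgf21, a secreted hormone, at 1.88 times (adjusted p = 0.333). At 30 mg/kg these genes were at 1.07 and 1.13 times vehicle (adjusted p of 0.62 and 0.859), and Fgf21 was at 0.601 times its 10 mg/kg level (adjusted p = 0.851). Of the 8 genes, 6 lay above vehicle at 10 mg/kg and 2 at 30 mg/kg. At an unadjusted p under 0.05 (limma), 2 were higher at 10 mg/kg (25%, against 4.49% of all genes) and 0 lower (against 8.79%). At 30 mg/kg 0 were higher (against 5.27%) and 0 lower (against 10.8%). The mean level of the list in single samples ran from -0.20 to 0.15 in vehicle, from -0.04 to 0.64 at 10 mg/kg, with sample 2 the highest, and from -0.22 to 0.17 at 30 mg/kg. Of the cold-inducible genes Cirbp and Rbm3 and of 13 measured clock genes, 0 were called (limma), and the mean clock level of single vehicle samples ran from -0.24 to 0.20.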
